A study of Arabidopsis thaliana with 8 samples.

Results

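The genes described here were 10 loci of Arabidopsis thaliana that make or are thought to modify root triterpenes, chosen by their locus identifiers from the 33602 loci of the count table. They were THAS (AT5G48010), THAH (AT5G48000, CYP708A2), THAD (AT5G47990, CYP705A5), THAA (AT5G47980), MRN1 (AT5G42600), CYP71A16 (AT5G42590), CYP705A12 (AT5G42580), CYP716A1 (AT5G36110), CYP716A2 (AT5G36140) and BARS1 (AT4G15370). RNA-seq had been run on total RNA of primary roots of wild-type Col-0 seedlings, with about 70 seedlings per sample, grown at 21 °C on sucrose-free medium. Seedlings of the dark groups were kept without any light for 4 or 7 days. In the lit-shoot groups only the shoots were lit (130 µmol for 16 h, then 8 h without light) for 4 or 7 days while a D-Root device kept the roots dark, an arrangement meant to resemble roots growing in soil. Every group was represented by 2 biological samples, which gave 8 libraries in 4 groups. No group carried a mutation or a chemical treatment.

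Plant triterpenes are built from squalene epoxide, which an oxidosqualene cyclase folds into a ring skeleton that cytochrome P450 enzymes and acyltransferases then decorate. In Arabidopsis roots, genes for such steps lie side by side in clusters, which is unusual for plant pathways. The thalianol cluster holds the cyclase THAS, the hydroxylase THAH, the desaturase THAD and the acyltransferase THAA, and the marneral cluster holds the cyclase MRN1 with CYP71A16 and CYP705A12. Both clusters are known for expression mainly in roots and for the repressive histone mark H3K27me3 in other tissues, and thalianol products are known to shape the bacteria that live on roots.

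Of the members, 9 lay on chromosome 5 and BARS1 lay on chromosome 4 (positions are those of the TAIR10.1 annotation). The thalianol cluster spanned 44.7 kb (chr5:19417020-19461706), the marneral cluster 34.7 kb (chr5:17023502-17058245) and the stretch from CYP716A1 to the cyclase gene PEN3 30.9 kb (chr5:14195356-14226211). BARS1 (chr4:8773730-8779685, minus strand) lay in a 62.3 kb stretch with the arabidiol synthase gene PEN1 (chr4:8751320-8813593). The cyclase genes THAS, MRN1 and BARS1 each had 14 annotated exons, THAD had 2 and THAA had 1. No member overlapped another annotated locus.

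The 250 bases upstream of the annotated start are shown for the cyclases that head the thalianol and marneral clusters, for THAD, which had the highest level per kb of the thalianol genes in 3 of the 4 groups (in the dark at 7 days THAS did), and for the neighbouring P450 copies CYP716A1 and CYP716A2, since these close copies differed in their response. They are written 5′ to 3′ on the strand of the gene and were read from the TAIR10.1 genome. Capitals mark the letters TATAAA or TTGAC on either strand.
THAS, chr5:19456587-19456836, plus strand: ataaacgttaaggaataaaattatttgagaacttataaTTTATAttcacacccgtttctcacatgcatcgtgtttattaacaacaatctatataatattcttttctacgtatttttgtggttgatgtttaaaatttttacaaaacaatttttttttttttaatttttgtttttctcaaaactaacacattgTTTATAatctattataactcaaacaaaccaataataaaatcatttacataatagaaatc
THAD, chr5:19434508-19434757, plus strand: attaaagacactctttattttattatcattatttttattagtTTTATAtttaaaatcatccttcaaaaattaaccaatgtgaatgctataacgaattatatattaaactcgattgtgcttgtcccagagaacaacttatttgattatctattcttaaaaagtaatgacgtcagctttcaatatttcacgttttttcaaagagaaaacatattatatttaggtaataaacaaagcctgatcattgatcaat
MRN1, chr5:17053203-17053452, plus strand: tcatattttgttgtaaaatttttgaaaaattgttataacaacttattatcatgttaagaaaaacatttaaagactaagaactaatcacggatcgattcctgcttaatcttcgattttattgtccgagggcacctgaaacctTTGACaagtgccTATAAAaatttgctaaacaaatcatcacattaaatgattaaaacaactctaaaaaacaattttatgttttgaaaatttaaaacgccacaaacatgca
CYP716A1, chr5:14195106-14195355, plus strand: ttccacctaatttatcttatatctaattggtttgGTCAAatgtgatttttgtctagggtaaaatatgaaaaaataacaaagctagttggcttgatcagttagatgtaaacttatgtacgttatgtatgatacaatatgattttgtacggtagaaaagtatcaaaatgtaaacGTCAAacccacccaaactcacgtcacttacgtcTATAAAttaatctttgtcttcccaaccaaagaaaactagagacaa
CYP716A2, chr5:14213294-14213543, minus strand: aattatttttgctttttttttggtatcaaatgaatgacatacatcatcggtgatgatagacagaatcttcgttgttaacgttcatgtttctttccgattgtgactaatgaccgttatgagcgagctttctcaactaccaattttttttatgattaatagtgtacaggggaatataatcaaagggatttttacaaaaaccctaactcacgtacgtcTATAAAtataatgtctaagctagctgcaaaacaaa
All were rich in A and T, with a G and C content of 20.8% for THAS, 24.0% for THAD, 27.2% for MRN1, 31.2% for CYP716A1 and 32.0% for CYP716A2. The longest run shared by the upstream stretches of CYP716A1 and CYP716A2 was 13 bases, tacgtcTATAAAt, which started 51 bases before the annotated start of CYP716A1 and 41 bases before that of CYP716A2.

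Searched on both strands, the G-box letters CACGTG occurred in the upstream stretch of 0 of the 10 members and in 6.49% of 27443 such stretches. The letters GATAAG occurred in 0 members and in 12.3% of all stretches. The W-box core TTGAC occurred in THAH, MRN1, CYP71A16 and CYP716A1 and in 44.9% of all stretches. The TATAAA letters occurred in 8 members and in 47.3% of all stretches. No match of 1 motif overlapped a match of another, and a match is a description of the sequence only.

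The members' levels are given as CPM, the reads of a gene relative to all counted reads of its library, corrected by TMM. Library totals ran from 25326045 to 30555290 counts. A gene was called at an edgeR quasi-likelihood adjusted p below 0.05, with Benjamini-Hochberg adjustment over the 20936 loci that passed a filter on low counts. Of the members, 9 passed that filter and BARS1 did not. The replicate libraries were not copies of each other, since a chi-square test of their counts gave 12 to 67.5 per degree of freedom. In whole roots, fewer cells of a type and less RNA per cell cannot be told apart.

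**Figure D1:**
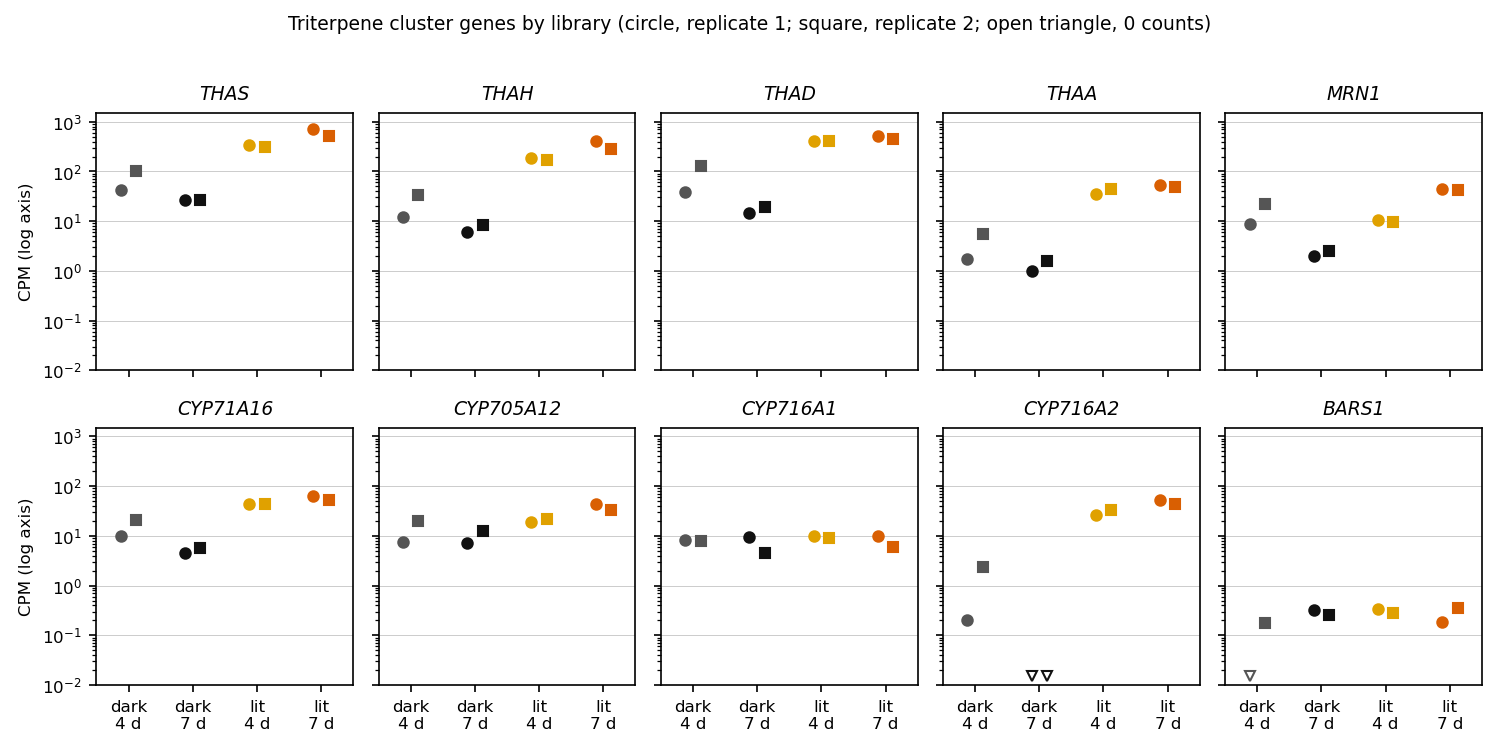
Level of each of the 10 genes in each of the 8 libraries, in CPM on a log axis, by group (circle, replicate 1; square, replicate 2; open triangle, no count). THAS, THAH, THAD, THAA, CYP71A16 and CYP716A2 lay higher in every lit-shoot library than in every dark library, while MRN1, CYP705A12, CYP716A1 and BARS1 did not.

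With lit shoots at 4 days, 6 of the 9 tested members were higher than in the dark and 0 were lower, and among all tested genes 30.5% were higher and 26.6% lower. The 6 were all 4 thalianol genes, CYP71A16 of the marneral cluster and CYP716A2. At 7 days 8 members were higher and 0 lower, against 36.2% and 32.8% of all genes. In either direction 57.1% of all tested genes were called at 4 days and 69% at 7 days. The median log2 difference of the tested members was 2.15 at 4 days and 4.54 at 7 days, and that of all tested genes was 0.065 and 0.0637. Summed over all 10 members, the level was 237 ± 152 CPM in the dark at 4 days, 76.8 ± 6.36 in the dark at 7 days, 1050 ± 14.1 with lit shoots at 4 days and 1700 ± 303 with lit shoots at 7 days (SD, n = 2). The members shared the same 8 libraries, and genes of 1 cluster are not replicates of each other.

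THAS encodes thalianol synthase, the cyclase that starts the thalianol pathway. Its level was 42.9 and 102 CPM in the dark at 4 days and 26.6 and 26.9 CPM in the dark at 7 days, against 334.5 and 308 CPM with lit shoots at 4 days and 724 and 524 CPM with lit shoots at 7 days. The lit-shoot libraries all lay above the dark libraries, and in the dark the 7-day libraries lay below the 4-day ones. THAS was 4.44-fold higher with lit shoots at 4 days (log2 fold change 2.15 ± 0.38 SE, edgeR adjusted p = 0.0026) and 23.3-fold higher at 7 days (4.54 ± 0.42, edgeR adjusted p = 7.4e-05).

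THAH, the thalianol hydroxylase, was at 11.9 and 33.8 CPM in the dark at 4 days and at 6.06 and 8.21 CPM at 7 days. With lit shoots it was at 183 and 170 CPM at 4 days and at 419 and 283 CPM at 7 days. No dark library reached the lowest lit-shoot one. The difference was 7.74-fold at 4 days (log2 2.95 ± 0.48, edgeR adjusted p = 0.0024) and 49.1-fold at 7 days (log2 5.62 ± 0.55, edgeR adjusted p = 0.00015).

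THAD, which introduces a double bond into the hydroxylated product, was at 38.6 and 129 CPM in the dark at 4 days and at 14.9 and 19.2 CPM at 7 days. With lit shoots it was at 401 and 405 CPM at 4 days and at 506 and 453 CPM at 7 days. The lit-shoot replicates lay close together, while the dark 4-day replicates differed by 3.35-fold. THAD was 4.8-fold higher at 4 days (log2 2.26 ± 0.51, edgeR adjusted p = 0.0095) and 28.1-fold higher at 7 days (log2 4.81 ± 0.58, edgeR adjusted p = 0.00039). Its 4-day call was lost when only the 4-day libraries entered the fit (edgeR adjusted p = 0.093).

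THAA, annotated as an acyltransferase of the HXXXD type, had the lowest level per kb of the thalianol genes with lit shoots. It was at 1.71 and 5.45 CPM in the dark at 4 days, at 0.997 and 1.55 CPM in the dark at 7 days, at 34.96 and 43.9 CPM with lit shoots at 4 days and at 54.2 and 48.8 CPM with lit shoots at 7 days. The groups of lit and dark libraries did not overlap. THAA was 11.1-fold higher at 4 days (log2 3.47 ± 0.44, edgeR adjusted p = 0.00061) and 40.1-fold higher at 7 days (log2 5.33 ± 0.50, edgeR adjusted p = 7.5e-05).

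A further acyltransferase locus at the edge of the thalianol cluster, AT5G47950, went from 22.96 ± 8.3 to 36.1 ± 0.696 CPM at 4 days (not called, edgeR adjusted p = 0.23) and from 7.95 ± 5.15 to 29.3 ± 5.12 CPM at 7 days (log2 1.88 ± 0.45, edgeR adjusted p = 0.0084). The 7-day call was lost without lit 7-day replicate 2 (log2 1.69, edgeR adjusted p = 0.06). AT5G47950 lies apart from THAA, with RABA4C and AT5G47970 between them. These loci, which are not triterpene genes by annotation, did not share the size of the response. RABA4C, a small GTPase gene, was lower at 4 days (log2 -0.53, edgeR adjusted p = 0.0084) and not called at 7 days (-0.13, edgeR adjusted p = 0.41). AT5G47970 was not called at 4 days (0.17, edgeR adjusted p = 0.43) and slightly higher at 7 days (0.63, edgeR adjusted p = 0.01).

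Away from the cluster, AT3G29250 (SDR4) and AT1G66800 are annotated as oxidoreductases of the Rossmann-fold type. SDR4 (AT3G29250) rose with lit shoots from 54.4 ± 17.2 to 112 ± 0.784 CPM at 4 days (log2 1.04 ± 0.27, edgeR adjusted p = 0.014) and from 12.0 ± 4.65 to 116 ± 9.03 CPM at 7 days (log2 3.27 ± 0.30, edgeR adjusted p = 5e-05). AT1G66800 rose from 9.91 ± 6.31 to 21.8 ± 1.48 CPM at 4 days (log2 1.14 ± 0.36, edgeR adjusted p = 0.03) and from 3.498 ± 0.154 to 31.5 ± 0.607 CPM at 7 days (log2 3.17 ± 0.40, edgeR adjusted p = 0.00025). The 7-day calls of both held in 8 of 8 fits that left out a library. The 4-day call held in 5 of 8 for AT3G29250 (lost without dark 4-day replicate 1 or either lit 4-day library) and in 2 of 8 for AT1G66800 (kept without either dark 4-day library).

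MRN1 encodes marneral synthase, and its pattern differed from that of the thalianol genes. It was at 8.83 and 22.2 CPM in the dark at 4 days and at 2.03 and 2.47 CPM in the dark at 7 days. With lit shoots it was at 10.8 and 9.65 CPM at 4 days and at 44.6 and 43.3 CPM at 7 days. At 4 days the lit-shoot libraries lay between the dark replicates, and at 7 days they lay far above them. The 4-day difference was not called (log2 -0.60 ± 0.36, edgeR adjusted p = 0.2), while the 7-day difference was 19.5-fold (log2 4.28 ± 0.42, edgeR adjusted p = 7.6e-05). The 4-day value rested on the spread in the dark: without dark 4-day replicate 1 it was -1.18 (edgeR adjusted p = 9e-04), and without replicate 2 it was 0.13 (edgeR adjusted p = 0.56).

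CYP71A16, a P450 known to act on the marneral product, was at 9.81 and 21.3 CPM in the dark at 4 days and at 4.51 and 5.74 CPM at 7 days. With lit shoots it was at 44.6 and 42.9 CPM at 4 days and at 62.6 and 52.5 CPM at 7 days. Unlike MRN1, it lay above every dark library at both ages. The difference was 2.81-fold at 4 days (log2 1.49 ± 0.32, edgeR adjusted p = 0.0053) and 11.2-fold at 7 days (log2 3.49 ± 0.35, edgeR adjusted p = 7.6e-05).

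CYP705A12, the other P450 gene of the marneral cluster, was at 7.49 and 20.0 CPM in the dark at 4 days, at 7.26 and 12.4 CPM in the dark at 7 days, at 18.6 and 21.6 CPM with lit shoots at 4 days and at 43.0 and 33.5 CPM with lit shoots at 7 days. The groups overlapped at 4 days and did not at 7 days. It was not called at 4 days (log2 0.55, edgeR adjusted p = 0.33) and was 3.88-fold higher at 7 days (log2 1.96 ± 0.46, edgeR adjusted p = 0.0077). Its 4-day difference was -0.058 without dark 4-day replicate 1 and 1.34 without replicate 2 (edgeR adjusted p = 0.89 and 0.012). Its 7-day call was lost without dark 7-day replicate 1 (1.62, edgeR adjusted p = 0.053) or lit 7-day replicate 1 (1.77, edgeR adjusted p = 0.051).

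**Figure D2:**
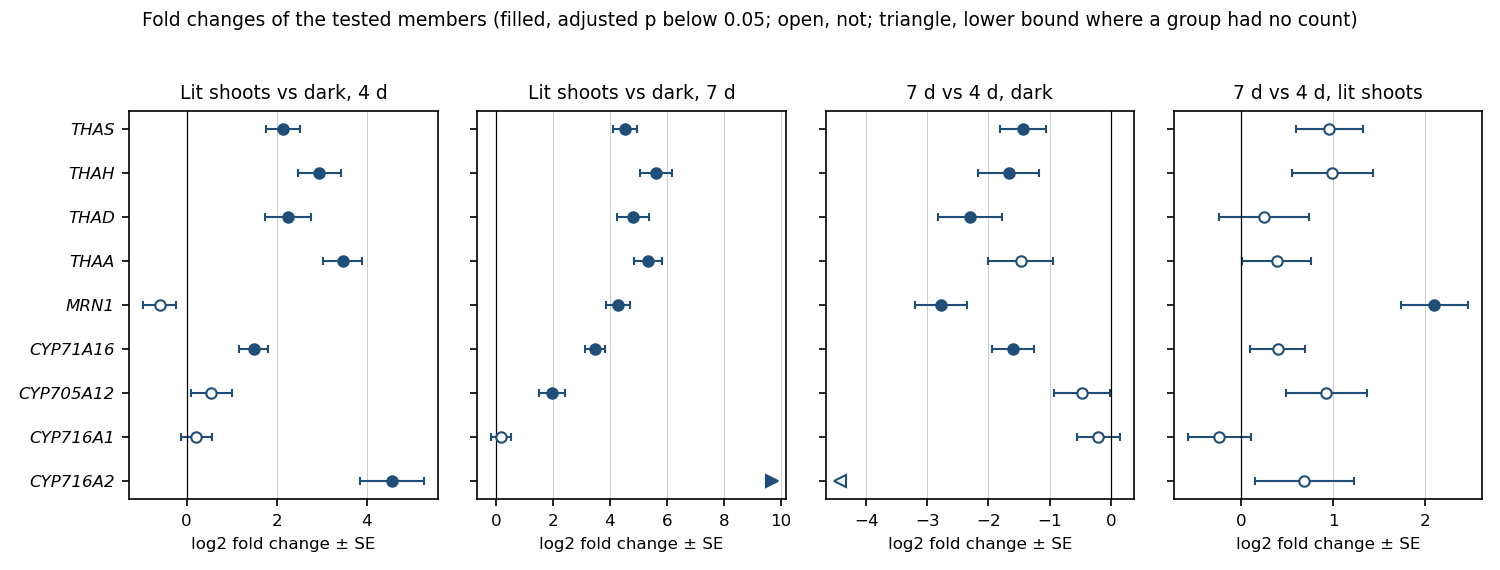
Log2 fold change with its standard error for the 9 tested genes in the comparisons of lit shoots with dark and of 7 with 4 days (filled, edgeR adjusted p below 0.05; a triangle gives the lower bound of the size where a group had no count). With lit shoots 6 genes were higher at 4 days and 8 at 7 days, and in the dark 5 genes were lower at 7 than at 4 days.

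CYP716A1 and CYP716A2 encode P450s of a family that oxidises amyrin-type triterpenes when expressed in yeast. They lie in the same stretch of chromosome 5, and their transcripts were 86.3% identical over 970 bases. These bases covered 94.3% of the CYP716A2 transcript (1029 bases) and 57.3% of that of CYP716A1 (1692 bases). CYP716A1 was at 8.42 and 7.75 CPM in the dark at 4 days, at 9.53 and 4.53 CPM in the dark at 7 days, at 9.86 and 8.96 CPM with lit shoots at 4 days and at 9.98 and 6.05 CPM with lit shoots at 7 days. The 7-day groups overlapped, and no comparison called this gene. Its difference with light was 0.22 at 4 days and 0.19 at 7 days on the log2 scale (edgeR adjusted p = 0.61 and 0.65).

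CYP716A2 was at 0.204 and 2.34 CPM in the dark at 4 days and had no count in both dark libraries at 7 days. With lit shoots it was at 25.7 and 33.5 CPM at 4 days and at 51.9 and 43.5 CPM at 7 days. It was 23.6-fold higher at 4 days (log2 4.56 ± 0.71, edgeR adjusted p = 0.0033). At 7 days it was at least 824-fold higher, counting 3 counts over the dark group as the floor (0.0574 CPM, counts pooled within a group, counting error only; edgeR adjusted p = 0.00052).

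Loci around CYP716A2 differed in their response. CYP716A1 was not called. Of the 5 flanking loci tested, 2 were higher and 2 lower at 4 days, and 3 were higher and 2 lower at 7 days. The shares of all tested genes were 30.5% higher and 26.6% lower at 4 days, and 36.2% and 32.8% at 7 days. HCF109 (log2 -0.69 and -0.98) and CYP81D1 (-1.01 and -2.08) fell at both ages, and AT5G36160 rose by 0.41 and 0.48. PEN3, the cyclase gene next to it (tirucalladienol synthase), rose from 0.933 ± 0.456 to 5.27 ± 0.702 CPM at 4 days (log2 2.50 ± 0.44, edgeR adjusted p = 0.0014) and from 0.235 ± 0.176 to 5.11 ± 1.41 CPM at 7 days (log2 4.45 ± 0.53, edgeR adjusted p = 8.8e-05). AT5G36130, annotated only as a P450 superfamily protein, lies on the other side, on the same strand as CYP716A2. It had 1 and 16 counts in the dark at 4 days, 1 and 0 at 7 days, 258 and 378 with lit shoots at 4 days and 647 and 613 with lit shoots at 7 days. AT5G36130 was higher at 4 days (log2 4.89 ± 0.62, edgeR adjusted p = 0.00043). At 7 days it was called as well (edgeR adjusted p = 4.4e-05), at a ratio of 1090 with a 95% counting interval of 194 to 42900. Whether AT5G36130 and CYP716A2 belong to the same transcript was not tested. How reads that match several loci were counted is not given in the sources used here, so reads could be split between CYP716A1 and CYP716A2.

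BARS1 encodes baruol synthase and resembles THAS (84.6% identity over 2304 bases of transcript). It had 0 and 4 counts in the dark at 4 days, 8 and 7 in the dark at 7 days, 10 and 8 with lit shoots at 4 days and 5 and 12 with lit shoots at 7 days. Its level stayed between 0 and 0.361 CPM in all 8 libraries, while that of THAS went from 26.6 to 724 CPM. With no filter on low counts, BARS1 was not called in either comparison of lit shoots with dark (log2 1.79 ± 1.27 at 4 days and -0.05 ± 1.08 at 7 days, edgeR adjusted p = 0.28 and 1).

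The stretch of chromosome 4 around BARS1 did not follow the thalianol genes. Of its 10 triterpene and related loci, 8 were tested. In lit-shoot roots 1 of them was higher and 6 were lower at 4 days, and 2 were higher and 4 lower at 7 days. Of all tested genes 30.5% were higher and 26.6% lower at 4 days, and 36.2% and 32.8% at 7 days. PEN1, whose product is cut in roots by the P450 CYP705A1, fell from 89.1 ± 0.423 to 44.2 ± 0.721 CPM at 4 days (log2 -1.01 ± 0.16, edgeR adjusted p = 0.00073) and was not called at 7 days (51.5 ± 10.3 against 41.9 ± 7.0 CPM, edgeR adjusted p = 0.12). CYP705A1 fell at both ages (log2 -1.05 ± 0.10 and -1.14 ± 0.10, edgeR adjusted p = 7e-05 and 1.6e-05). CYP705A4 and the acyltransferase gene BIA1 (AT4G15400) were also lower at both ages, by log2 -1.31 and -0.99 for CYP705A4 and -1.49 and -1.64 for BIA1. CYP702A6 was higher at both, by log2 0.82 and 2.88, and its 4-day call held in 1 of 8 fits that left out a library. The acyltransferase locus AT4G15390 was lower at 4 days (log2 -1.39 ± 0.11, edgeR adjusted p = 3.8e-05) and higher at 7 days (log2 0.65 ± 0.10, edgeR adjusted p = 0.00057).

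Over the 4 stretches together, 19 of 21 triterpene and related loci were tested. In lit-shoot roots 8 rose and 6 fell at 4 days, and 12 rose and 4 fell at 7 days. Of the 80 loci that flank the clusters, 10 on each side of each, 53 were tested. Of these, 14 were higher and 16 lower at 4 days, and 15 were higher and 19 lower at 7 days. Among all tested genes 30.5% were higher and 26.6% lower at 4 days, and 36.2% and 32.8% at 7 days. The flanking counts lay near these shares. Among the flanking loci, scpl1 (AT5G36180, a carboxypeptidase-like gene), lay 26.8 kb from CYP716A2 and rose by log2 1.86 at 4 days and 3.64 at 7 days (edgeR adjusted p = 0.0012 and 3.6e-05). Single flanking loci of the other stretches had larger rises at 4 days. These were XTH20 beside the thalianol cluster (log2 3.97), AT5G42510 beside the marneral cluster (3.75) and ATCSLB05 on chromosome 4 (4.12), with edgeR adjusted p of 0.00018, 0.00091 and 0.00086. At 7 days the means in the dark and with lit shoots were 0.0368 and 11.7 CPM for XTH20, 0.195 and 10.7 CPM for AT5G42510 and 0.0383 and 28.9 CPM for ATCSLB05.

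**Figure D3:**
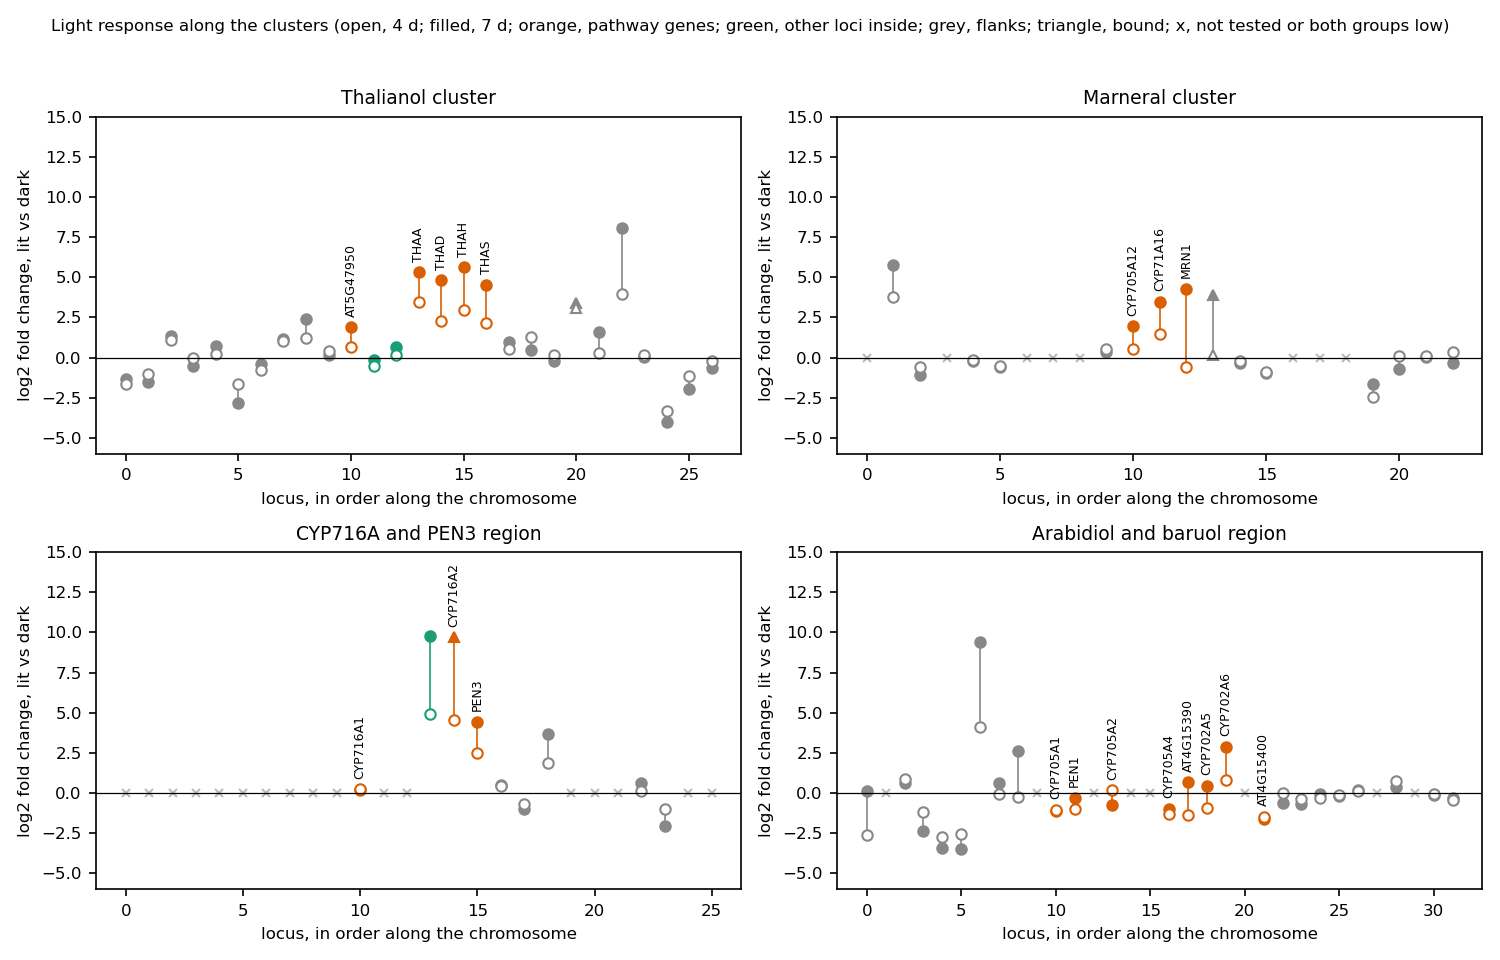
Log2 difference between lit shoots and dark for each locus in chromosomal order across the 4 stretches (open, 4 days; filled, 7 days; orange, triterpene and related genes; green, other loci inside; grey, 10 flanking loci on each side; triangle, lower bound; cross, not tested or both groups low). The 4 thalianol members stand together above 0, whereas 6 of the 8 tested chromosome 4 loci were lower at 4 days.

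In the dark, 5 of the 9 tested members were lower at 7 than at 4 days and 0 were higher, against 18.3% and 13.3% of all tested genes and 31.6% in either direction. These were MRN1 (log2 -2.78 ± 0.42, edgeR adjusted p = 0.0032), CYP71A16 (-1.60 ± 0.34, edgeR adjusted p = 0.012), THAD (-2.30 ± 0.52, edgeR adjusted p = 0.019), THAS (-1.43 ± 0.38, edgeR adjusted p = 0.028) and THAH (-1.67 ± 0.49, edgeR adjusted p = 0.044). THAA was not called (-1.47, edgeR adjusted p = 0.076). CYP716A2 went from 59 counts to none, at least 21.6-fold lower, and was not called (edgeR adjusted p = 0.063). When each of the 8 libraries was left out in turn, MRN1 kept its call in 8 of 8 fits, CYP71A16 in 7, THAS and THAD in 4 and THAH in 1. The number of members called lower was 8 without dark 4-day replicate 1, 1 without dark 7-day replicate 1 and 2 without dark 7-day replicate 2, lit 7-day replicate 1 or lit 7-day replicate 2.

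With lit shoots, MRN1 was the member called between the ages, higher at 7 than at 4 days (4.3-fold, log2 2.10 ± 0.36, edgeR adjusted p = 0.03), while 2.13% of all tested genes were higher, 2.1% lower and 4.23% called in either direction. THAS and THAH had differences of 0.96 and 0.99 on the log2 scale (edgeR adjusted p = 0.18 and 0.26), and THAD had 0.25 (edgeR adjusted p = 0.82). The MRN1 call held in 2 of the 8 fits that left out a library, those without a dark 4-day library. It was lost without either dark 7-day library (edgeR adjusted p = 0.053 and 0.053), either lit 4-day library (0.2 and 0.17) or either lit 7-day library (0.12 and 0.069), with a difference between 2.03 and 2.19 throughout.

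The response to lit shoots was larger at 7 than at 4 days for 4 of the 9 tested members by the interaction test, against 9.03% of all tested genes with a positive and 5.57% with a negative interaction (14.6% in all). The difference of the 2 responses was 4.88 ± 0.55 for MRN1 (edgeR adjusted p = 0.0029), 1.99 ± 0.46 for CYP71A16 (0.03), 2.39 ± 0.52 for THAS (0.028) and 2.67 ± 0.66 for THAH (0.046), in log2 units. For THAD it was 2.55 (edgeR adjusted p = 0.061) and for THAA 1.86 (edgeR adjusted p = 0.1). The interaction for MRN1 held in 8 of 8 fits that left out a library and those of THAS, THAH and CYP71A16 in 2 of 8. Leaving out either dark 4-day library added members to these, and leaving out any other single library left MRN1 alone. Over these fits the difference ranged from 4.13 to 5.45 for MRN1, 1.70 to 2.94 for THAS, 1.79 to 3.29 for THAH and 1.39 to 2.50 for CYP71A16.

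Per kilobase of annotated exon, the members' levels with lit shoots at 7 days spanned from 251 ± 19.8 CPM per kb for THAD to 0.116 ± 0.0542 for BARS1 (SD, n = 2). THAD ranked 199th and THAS (235 ± 53.3 CPM per kb) 216th of 26712 loci in that group, and their ranges overlapped. THAH followed at 158.5 ± 43.5 and CYP716A2 at 46.4 ± 5.74 CPM per kb. THAA and CYP71A16, at 31.6 ± 2.36 and 31.2 ± 3.89 CPM per kb, did not differ beyond their spread. CYP705A12 (21.5 ± 3.79), MRN1 (16.5 ± 0.322) and CYP716A1 (4.74 ± 1.64) came next.

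In the dark at 7 days the order was different. THAS stood at 10.08 ± 0.0804 CPM per kb and rank 9126, followed by THAD at 8.92 ± 1.58 and CYP705A12 at 5.53 ± 2.05. CYP716A1 (4.15 ± 2.09) lay above THAH (3.22 ± 0.685) and CYP71A16 (2.77 ± 0.473), with overlapping spreads. MRN1 (0.843 ± 0.114), THAA (0.780 ± 0.238), BARS1 (0.123 ± 0.0186) and CYP716A2 (no count) were lowest.

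The 2 dark 4-day libraries stood apart from each other in 8 of the 9 tested members. Replicate 2 was higher than replicate 1 by 2.37-fold for THAS, 2.84-fold for THAH, 3.35-fold for THAD and 3.19-fold for THAA. It was higher by 2.51-fold for MRN1, 2.18-fold for CYP71A16, 2.66-fold for CYP705A12 and 11.5-fold for CYP716A2, while CYP716A1 was at 0.92 times replicate 1. In the other groups the tested members had replicate 2 at 0.475 to 1.71 times replicate 1. Of 18980 genes with a mean of at least 1 CPM, 2.37% had replicate 2 at least 2-fold higher in that group, against 0.511% to 2.7% in the other groups. Of the 6 epidermis and root hair markers, COBL9 (28 and 139 counts), EXPA7 (18 and 73) and RSL4 (34 and 63) were also higher in replicate 2. GL2 (328 and 332 counts) was level, and WER (119 and 107) and RHD6 (549 and 482) were not higher. The shoot markers that passed the filter were all lower in replicate 2. They were ATML1 (190 and 47 counts), PDF1 (30 and 8), CER1 (22 and 6) and KCS10 (1474 and 1184). The part of these markers in the result was not tested.

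**Figure D4:**
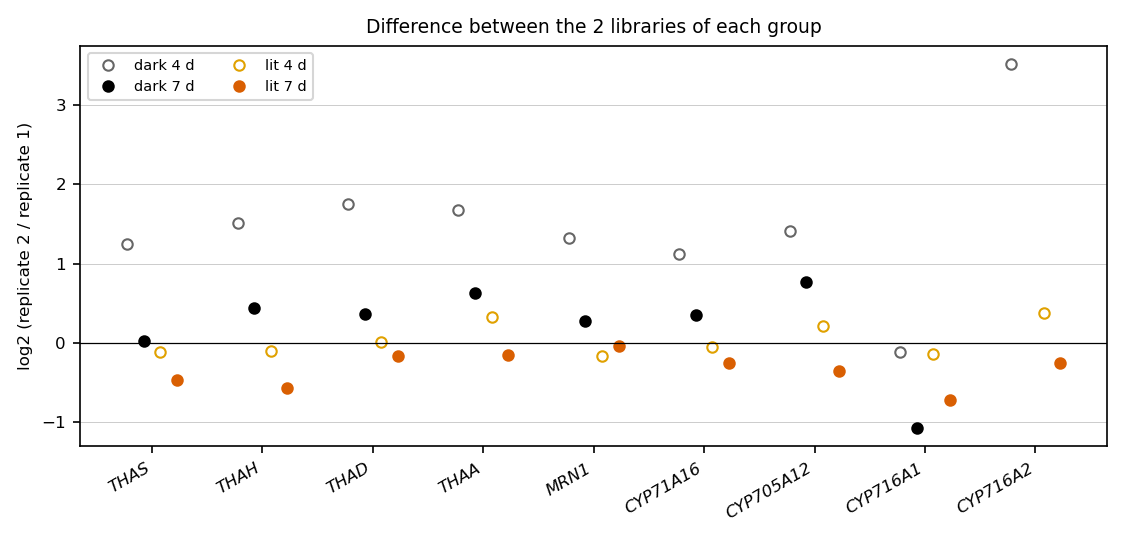
Log2 ratio of replicate 2 to replicate 1 for the 9 tested genes in each group (open grey, dark 4 days; black, dark 7 days; open yellow, lit 4 days; orange, lit 7 days; no point for CYP716A2 in the dark at 7 days, where both libraries had no count). In the dark at 4 days, replicate 2 was at least 2.18-fold higher for 8 genes and at 0.92 times replicate 1 for CYP716A1.

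Across the 8 libraries the log2 levels of the thalianol genes ran closely together, with Pearson's r between 0.981 and 0.998 among the 4 genes. CYP71A16 and CYP716A2 ran with THAS at 0.986 and 0.988. MRN1 ran with THAS at 0.844, CYP705A12 at 0.909 and CYP716A1 at 0.327. These are descriptions over libraries that fall into a lit and a dark set, and 1064 of 20927 genes ran with THAS above 0.95. The genes most like THAS were ARAC9 (0.997), HCT (0.997) and IGMT5 (0.997), of which IGMT5 went from 3.95 CPM in the dark to 246 CPM with lit shoots at 7 days. For MRN1 only 15 genes were above 0.95, led by AT1G66020 (0.982) and DML1 (0.976), the gene of the DNA demethylase ROS1. For CYP716A2, 1728 genes were above 0.95, and the closest was its neighbour scpl1 (0.999).

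Upstream of the clusters, the genes from acetyl-CoA to squalene epoxide were compared in the same fits, in which 30.5% of all genes were higher and 26.6% lower at 4 days and 36.2% and 32.8% at 7 days. Of 20 tested, 12 were higher and 2 lower at 4 days (median log2 0.57), and 15 were higher and 2 lower at 7 days (median 1.35). SQE3, a squalene epoxidase gene that makes the substrate of the cyclases, had 34 and 25 counts in the dark at 4 days, 11 and 16 at 7 days, 1267 and 1145 with lit shoots at 4 days and 744 and 1145 with lit shoots at 7 days. SQE3 showed the largest rise of this list at both ages (log2 5.04 ± 0.20 and 5.89 ± 0.23, edgeR adjusted p = 3.7e-06 and 7.5e-07). The 4-day count of higher genes was 6 to 13 when 1 library was left out, with 7 without dark 4-day replicate 1, 6 without replicate 2 and 6 without lit 4-day replicate 2. HMGS, which makes HMG-CoA, rose by log2 1.52 and 2.23, and the squalene epoxidase SQE4 (named SQP2 in the reference) by 3.04 at 7 days (edgeR adjusted p = 7.3e-05, 5e-06 and 2e-04). AACT1 and HMG1, which encode an early thiolase and an HMG-CoA reductase, fell at both ages. The log2 values were -1.04 and -0.71 for AACT1 and -0.71 and -0.67 for HMG1. The other listed genes of these steps did not fall, with AACT2 (ACAT2 in the reference) at log2 0.99 and 1.89 and HMG2 at 0.05 and 0.51. In the dark 15 of the 20 genes were lower at 7 than at 4 days and 1, SQE6, was higher. Of all tested genes 18.3% were lower and 13.3% higher.

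Squalene epoxide also feeds sterols through cycloartenol synthase (CAS1). Of the 11 genes on the sterol branch, 8 were higher at 4 days (median log2 0.54) and 11 at 7 days (median 0.88), with 0 lower at either age. Of all tested genes 30.5% were higher and 26.6% lower at 4 days, and 36.2% and 32.8% at 7 days. Without dark 4-day replicate 2 the 4-day count was 5. CAS1 rose by log2 0.56 at 4 days and 0.74 at 7 days (edgeR adjusted p = 0.0063 and 0.001). FK, the sterol C-14 reductase gene, had the largest rise at both ages (log2 1.78 ± 0.14 and 3.20 ± 0.15, edgeR adjusted p = 3.7e-05 and 1.3e-06).

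Among the oxidosqualene cyclases, 10 of 13 were tested. At 4 days 5 were higher and 2 lower, and at 7 days 6 were higher and 1 lower. The shares of all tested genes were 30.5% and 26.6% at 4 days, and 36.2% and 32.8% at 7 days. This list overlaps with the others, since it holds the members THAS, MRN1 and BARS1 and also PEN1, PEN3 and CAS1. THAS was among those higher at both ages, and MRN1 among those higher at 7 days. LUP4 (BAS in the reference), the β-amyrin synthase gene, rose from 0.550 ± 0.202 to 9.82 ± 0.83 CPM at 4 days and from 0.0797 ± 0.113 to 9.19 ± 1.17 CPM at 7 days (log2 4.16 ± 0.42 and 6.82 ± 0.55, edgeR adjusted p = 9.7e-05 and 1.3e-05). LAS1, the lanosterol synthase gene, was higher at both ages (log2 0.89 and 2.47, edgeR adjusted p = 0.044 and 0.00047), with the 4-day call held in 3 of 8 fits that left out a library. LUP2 was lower at both (-0.58 and -0.52, edgeR adjusted p = 0.01 and 0.011).

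**Figure D5:**
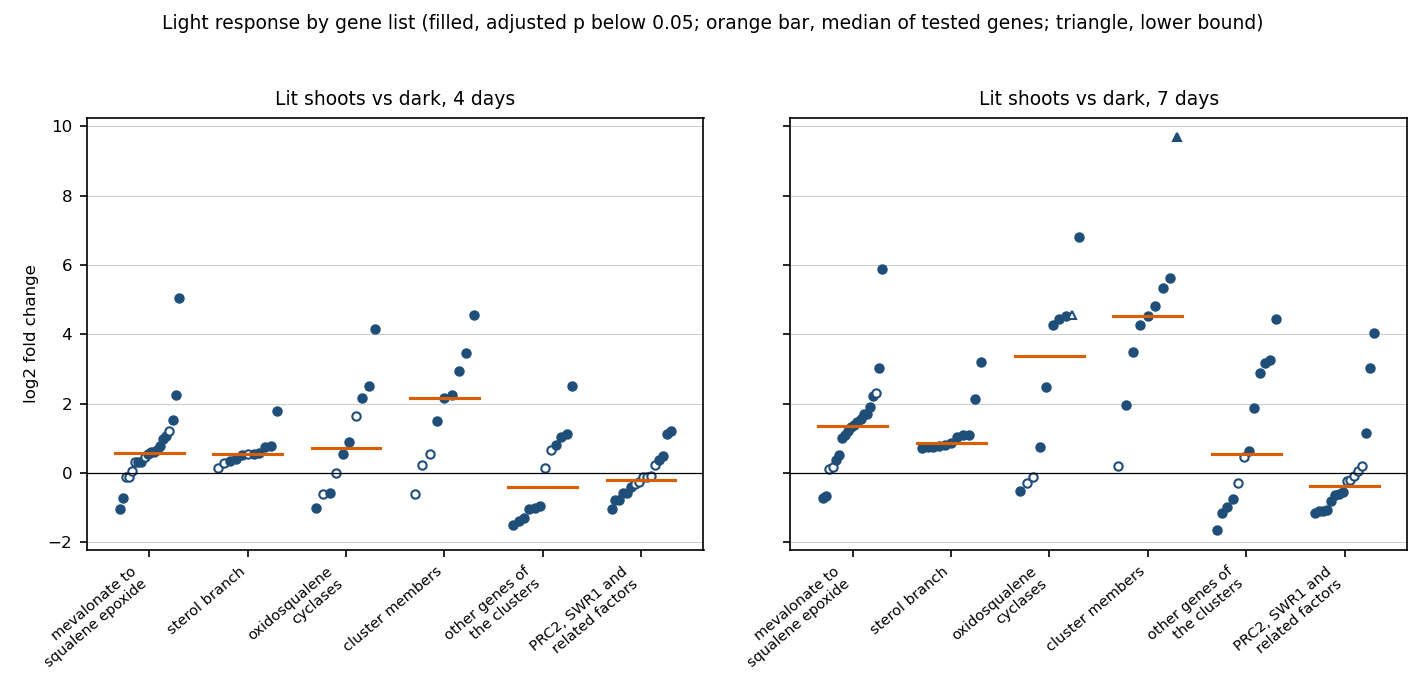
Log2 difference between lit shoots and dark at 4 days (left) and 7 days (right) for genes of the precursor pathway, the sterol branch, the cyclases, the cluster members, other cluster and related genes and chromatin factors (filled, edgeR adjusted p below 0.05; triangle, lower bound; orange bar, median of the tested genes). The members' medians, 2.15 and 4.54, lay above those of the precursor genes, 0.57 and 1.35, and of the sterol branch, 0.54 and 0.88. The cyclase list also holds THAS, MRN1, CAS1, PEN1 and PEN3, which are plotted in other lists too.

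Polycomb repressive complex 2 writes H3K27me3, which LHP1 binds and REF6 and ELF6 remove, and the SWR1 complex places the histone variant H2A.Z. The 16 genes tested encode such factors, H2A.Z itself or the chromatin remodeller PKL. Of them, 4 rose and 6 fell in lit-shoot roots at 4 days, and 3 rose and 8 fell at 7 days. The share of all tested genes was 30.5% higher and 26.6% lower at 4 days, near these counts, and 36.2% and 32.8% at 7 days. The number higher at 4 days was 1 without lit 4-day replicate 2 and 2 without either dark 4-day library. The H2A.Z genes split. HTA11 rose by log2 1.12 and 4.03 and HTA8 by 1.22 and 3.04, while HTA9 (165 ± 11.8 CPM in the dark at 4 days) fell by 1.03 and 0.81 (edgeR adjusted p at most 0.0051 in each). The methyltransferase genes of the complex also split, with CLF higher (0.49, held at 4 days in 5 of 8 fits that left out a library, and 1.16) and SWN lower (-0.77 and -1.14), and LHP1 (TFL2 in the reference) was lower at both ages (-0.77 and -1.09). In the dark, HTA11 went from 10.9 ± 1.3 CPM at 4 days to 1.31 ± 0.182 at 7 days (log2 -3.05 ± 0.20, edgeR adjusted p = 6.1e-05).

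Thalianol and marneral genes are known from the root epidermis. Of 6 epidermis and root hair markers, 4 were higher with lit shoots at 4 days and 6 at 7 days, with 0 lower. Of all tested genes 30.5% were higher and 26.6% lower at 4 days, and 36.2% and 32.8% at 7 days. The markers' summed level was 43.8 and 51.8 CPM in the dark at 4 days and 13.1 and 16.7 at 7 days. With lit shoots it was 163 and 149 CPM at 4 days and 83.4 and 116 at 7 days. EXPA7 rose by log2 4.46 and 6.46, COBL9 (SHV2 in the reference) by 3.76 and 6.32, RSL4 by 2.69 at 4 days and WER (MYB66) by 3.11 at 7 days. In the dark 4 of the 6 were lower at 7 days, against 18.3% of all tested genes. Between the ages with lit shoots, 0 of the 6 markers and 1 of the 9 tested members (MRN1) were called. The markers' sum was 156 ± 10.2 CPM at 4 days and 99.5 ± 22.8 at 7 days (median log2 -0.65). The members' sum was 1050 ± 14.1 and 1700 ± 303 CPM (median 0.69).

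The xylem protease genes XCP1 and XCP2, from a list of 4 vascular markers, also moved strongly. XCP1 was at 77.5 ± 11.8 CPM in the dark at 4 days, 3.57 ± 0.527 in the dark at 7 days, 125 ± 9.14 with lit shoots at 4 days and 127 ± 24.4 with lit shoots at 7 days. With lit shoots at 7 days XCP1 was higher by log2 5.16 ± 0.20 and XCP2 by 4.32 ± 0.26 (edgeR adjusted p = 9e-07 and 5.6e-06), and in the dark they fell with age by 4.44 and 3.65. At 4 days XCP1 was higher (0.69) and XCP2 was not called (0.51, edgeR adjusted p = 0.079). The phloem genes differed from them. SUC2 was lower at 4 days (-1.64) and not called at 7 days (0.05), and APL was lower at both ages (-0.67 and -0.85). The list summed to 267 ± 30.1 and 80.6 ± 1.17 CPM in the dark and 293 ± 25.3 and 338 ± 81.7 CPM with lit shoots, at 4 and 7 days in each.

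Of 4 endodermis and ground tissue markers 1 was higher and 1 lower at 4 days (SHR 0.93, MYB36 -0.87), and 1 was higher and 2 lower at 7 days (CASP1 1.00, MYB36 -1.72, SCR -0.45), in log2 units. Of 7 apex and cap markers 0 were higher and 1, SMB, was lower at 4 days (-0.88). At 7 days NAC015 was higher (1.85) and NAC070 and PLT2 were lower (-1.11 and -0.70). The median of these lists at 7 days was -0.13 and -0.30, against 4.54 for the members. The shares of all tested genes were 30.5% higher and 26.6% lower at 4 days, and 36.2% and 32.8% at 7 days.

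Of 15 shoot markers 3 (MUTE, FMA and EPF1) had no count in any library and 4 passed the filter. At 4 days CER1 was higher (log2 2.16 ± 0.56, edgeR adjusted p = 0.01) and KCS10 lower (-0.59), and at 7 days PDF1 and CER1 were higher. ATML1 was not called at either age (log2 -2.66 at 4 days and 0.99 at 7 days). ATML1 had 190 and 47 counts in the dark at 4 days and 47 and 35 at 7 days. With lit shoots ATML1 had 42 and 4 counts at 4 days and 50 and 147 at 7 days. PDF1, an epidermal gene of the shoot, had 30 and 8 counts in the dark at 4 days, 3 and 1 at 7 days, 23 and 23 with lit shoots at 4 days and 299 and 473 with lit shoots at 7 days. PDF1 was not called at 4 days (-0.02, edgeR adjusted p = 0.97) and was higher at 7 days (log2 7.27 ± 0.63, edgeR adjusted p = 1.8e-05). CER1 was higher by 2.24 ± 0.55 at 7 days (edgeR adjusted p = 0.0057). The list summed to 38.8 to 70.0 CPM, of which KCS10 alone made 34.1 to 60.0. The root markers PLT1 (9.54 to 19.3 CPM) and SMB (5.17 to 18.6 CPM) were present in all 8 libraries. The part of these markers of other cell types in the members' results was not tested.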

How the data were processed

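RNA of Arabidopsis primary roots was rRNA-depleted and sequenced, and the authors deposited raw counts of reads per locus for 8 libraries. Per the submitters' processing notes, FastQC, Trim Galore, TopHat2, Subread and CASAVA 1.8.2 were used with the TAIR10 build. For strand use and multi-mapping reads the setting is not given in the sources used here. The deposited counts of 33602 loci were filtered with filterByExpr (minimum count 10, minimum total 15), scaled by TMM and fitted with edgeR 4.0.16 in R 4.3.3 (glmQLFit robust, glmQLFTest, 1 coefficient per group, 8 libraries, 4 residual degrees of freedom). This left 20936 loci, over which p-values were adjusted by Benjamini-Hochberg at 0.05. Tests were also run on simulated counts in which few genes differed between the groups. In these data many genes were called, so that run cannot check the scaling here. Library totals were 25326045 to 30555290, and floors (3 counts over a group) and intervals cover counting error only.

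The members, gene lists and tests were chosen with earlier results of these data known. Genes named from a list were taken from the up to 3 called genes that rose most and 3 that fell most in a comparison, with any cyclase or cluster gene; markers and flanking loci outside that rule were chosen after their values were seen. The alternatives were DESeq2 1.42.0, other scalings and filters, fits of the compared groups alone, a replicate term and leaving out each library. Of the loci, 32835 were found in the TAIR10.1 annotation, whose positions and genome were used. Transcripts were compared with BLAST 2.17.0+.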

Additional observations from a re-analysis of the deposited data

Results flagged for a closer look

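The response to lit shoots differed between the ages for 4 of 9 tested members and 5 of 12 other tested genes by the interaction test of the edgeR fit (9.03% of all tested genes had a positive and 5.57% a negative interaction), given here as the log2 response at 7 days minus that at 4 days with its standard error. Among the members it was 4.88 ± 0.55 for MRN1 (edgeR adjusted p = 0.0029), 2.39 ± 0.52 for THAS (0.028), 1.99 ± 0.46 for CYP71A16 (0.03) and 2.67 ± 0.66 for THAH (0.046). In the chromosome 4 stretch it was 2.04 ± 0.15 for AT4G15390 (edgeR adjusted p = 0.00032), whose response changed sign between the ages, 1.40 ± 0.28 for CYP702A5 (0.015) and 2.07 ± 0.45 for CYP702A6 (0.02). For the oxidoreductase loci outside the clusters it was 2.23 ± 0.39 for AT3G29250 (edgeR adjusted p = 0.013) and 2.03 ± 0.53 for AT1G66800 (0.044). Of the 12 other genes, 1 was called without either lit 4-day library and 4 to 5 without any other library. Among the 5 named here, the call held in 8 of 8 such fits for AT4G15390, 6 for CYP702A5, 5 for CYP702A6 and AT3G29250 and 2 for AT1G66800. For the members, leaving out either dark 4-day library added calls, and leaving out any single dark 7-day, lit 4-day or lit 7-day library left MRN1 alone.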

How the results depend on the processing

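The 4-day and 7-day calls of THAS, THAH, THAA, CYP71A16 and CYP716A2 held in every alternative run. Over all alternatives, 612 member values kept their direction and side of the threshold, 36 passed it newly, 49 lost it and 13 changed sign. With no filter on low counts, 1 member was lower at 4 days with lit shoots, 8 were lower with age in the dark, 5 were higher with age in the light, and 8 had a larger response at 7 days, while 3056 genes were called between the ages in the light (886 in the main result) and 4964 for the interaction (3057). In that run without a filter the members' fold changes barely moved while their adjusted p fell. The THAD interaction was log2 2.56 (edgeR adjusted p = 3e-32) against 2.55 (0.061) in the main result. MRN1 at 4 days was -0.59 (edgeR adjusted p = 0.0021) against -0.60 (0.2). DESeq2 called 1704 genes between the ages in the light and 7 members for the interaction. With only the compared groups fitted, 2 members were lower with age in the dark and 3 higher in the light. Scaling by library totals alone shifted the all-gene median log2 response (0.199 at 4 days, 0.168 at 7 days) and moved the share of calls that were higher at 4 days from 53.5% to 66.2%. The interaction of CYP716A1, -0.03, was 0.022 with a filter of 1 CPM in 2 libraries and 0.0283 with organelle, rRNA and tRNA loci removed.

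With a replicate block, 3 members were lower with age in the dark in place of 5 (edgeR adjusted p = 0.05 for THAS and 0.066 for THAH), and the THAH interaction was not called (0.063). Samples with the same number shared little, with correlations of their deviations of 0.01 to 0.087, so the numbers were not taken as pairs.

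Leaving out each library in turn gave 6 to 8 members higher and 0 to 1 lower at 4 days, 7 to 8 higher at 7 days, 1 to 8 lower with age in the dark, 0 to 3 higher with age in the light and 1 to 8 for the interaction. Over all genes it gave 8519 to 12120, 12551 to 14580, 3487 to 6993, 0 to 1111 and 832 to 2918 calls. The 0 came from edgeR without lit 4-day replicate 1, where 2716 of 21366 genes had an unadjusted p below 0.05. List counts without each library were added after seeing the data. The 4-day response ranged from -1.18 to 0.13 for MRN1 and from -0.058 to 1.34 for CYP705A12, whose change with age in the dark ranged from -1.03 to 0.37. CYP716A1 ranged from -0.28 to 0.81 for the 7-day response, from -0.87 to 0.23 and from -0.63 to 0.086 with age in the dark and in the light, and from -0.43 to 0.67 for the interaction. The cause of these changes was not tested. With 2 libraries per group and 4 residual degrees of freedom, differences near the replicate spread could not be resolved.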
